A study of Mus musculus with 2 samples.

Results

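The SoxB1, SoxC and SoxE genes are 9 of the 32285 genes counted here, taken by symbol: *Sox1*, *Sox2* and *Sox3* (SoxB1), *Sox4*, *Sox11* and *Sox12* (SoxC), and *Sox8*, *Sox9* and *Sox10* (SoxE). They were followed through marker-gated progenitor, neuron and glial classes of the mouse cerebral cortex at embryonic day (E) 16.5. All Sox proteins bind DNA through an HMG box. SoxB1 factors keep neural progenitors undifferentiated, and SoxC factors act in cells that leave the progenitor state and switch on neuronal genes. SoxE factors belong to glial competence, with *Sox9* in radial glia, *Sox10* in the oligodendrocyte lineage and *Sox8* as their close relative.

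The study examined signals from interneurons to cortical progenitors, and these wild-type (WT) single-cell libraries, from control animals of an Eomes-Cre line labelled EomesDot, belong to the data it used to predict contacts between such cells. It describes the embryos behind those data as C57BL6/J. Both libraries, called replicates 1 and 4 after their names, belong to the same group, and no mutant or treated group enters. The study gives a number of embryos for its E16.5 single-cell data as a whole but none for a library, so the spread between them may be technical. Replicate 1 gave 5966 cells with a median of 5706 unique molecular identifiers (UMIs, counts of captured molecules) and replicate 4 gave 10247 cells with a median of 4938, after removal of barcodes outside 1500 to 60000 UMIs or with 10% or more mitochondrial UMIs.

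Gates built on 115 marker genes, none of them a Sox gene, placed 73.0% (replicate 1) and 70.2% (replicate 4) of all kept cells in 12 neural and 5 non-neural classes. Class names end in "-like" because they rest on these markers alone. Radial glial cell (RGC)-like cells numbered 687 over both libraries, intermediate progenitor cell (IPC)-like cells 879, newborn excitatory neuron-like cells 1250, and upper-layer and deep-layer neuron-like cells 3297 and 727. The cortical dissection also held 985 GABAergic progenitor-like cells, 1194 interneuron-like cells of medial ganglionic eminence (MGE) type, 736 of caudal ganglionic eminence (CGE) type and 566 striatal projection neuron-like cells. Only 97 cells passed as Olig glial progenitor-like and 69 as Cajal-Retzius-like. The libraries shared 21 cell barcodes among kept cells. A level is the share that a gene takes of the summed UMIs of a class in 1 library, given on the usual CPM scale (counts scaled to the same total in every class). Levels are compared between classes and not between genes, because CPM of a 3′ library depends on how well each transcript is captured. Fold changes and adjusted p-values are from edgeR's quasi-likelihood test on these sums with the library as a block, adjusted by Benjamini-Hochberg over all genes tested, and a call is an adjusted p under 0.05. Several comparisons share the RGC-like or the excitatory sums. Classes of the same library come from the same tissue, so the p-values rest on how well 2 libraries repeat each other. For each gene, the class comparisons share 1 estimate of the spread over all 12 neural classes, not only the classes compared.

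The 9 genes lie on 9 chromosomes (GRCm38.p6 coordinates). The SoxB1 genes, at chr8:12395519-12399555 (*Sox1*), chr3:34649995-34652461 (*Sox2*) and chrX:60891366-60893430 (*Sox3*), and the SoxC genes, at chr13:28948919-28953699 (*Sox4*), chr12:27334268-27342718 (*Sox11*) and chr2:152393611-152398046 (*Sox12*), each have 1 exon in their canonical transcript. The SoxE genes are split, with 3 exons in *Sox8* (chr17:25565893-25570686), 3 in *Sox9* (chr11:112782210-112787757) and 4 in *Sox10* (chr15:79154913-79164490).

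**Figure D1:**
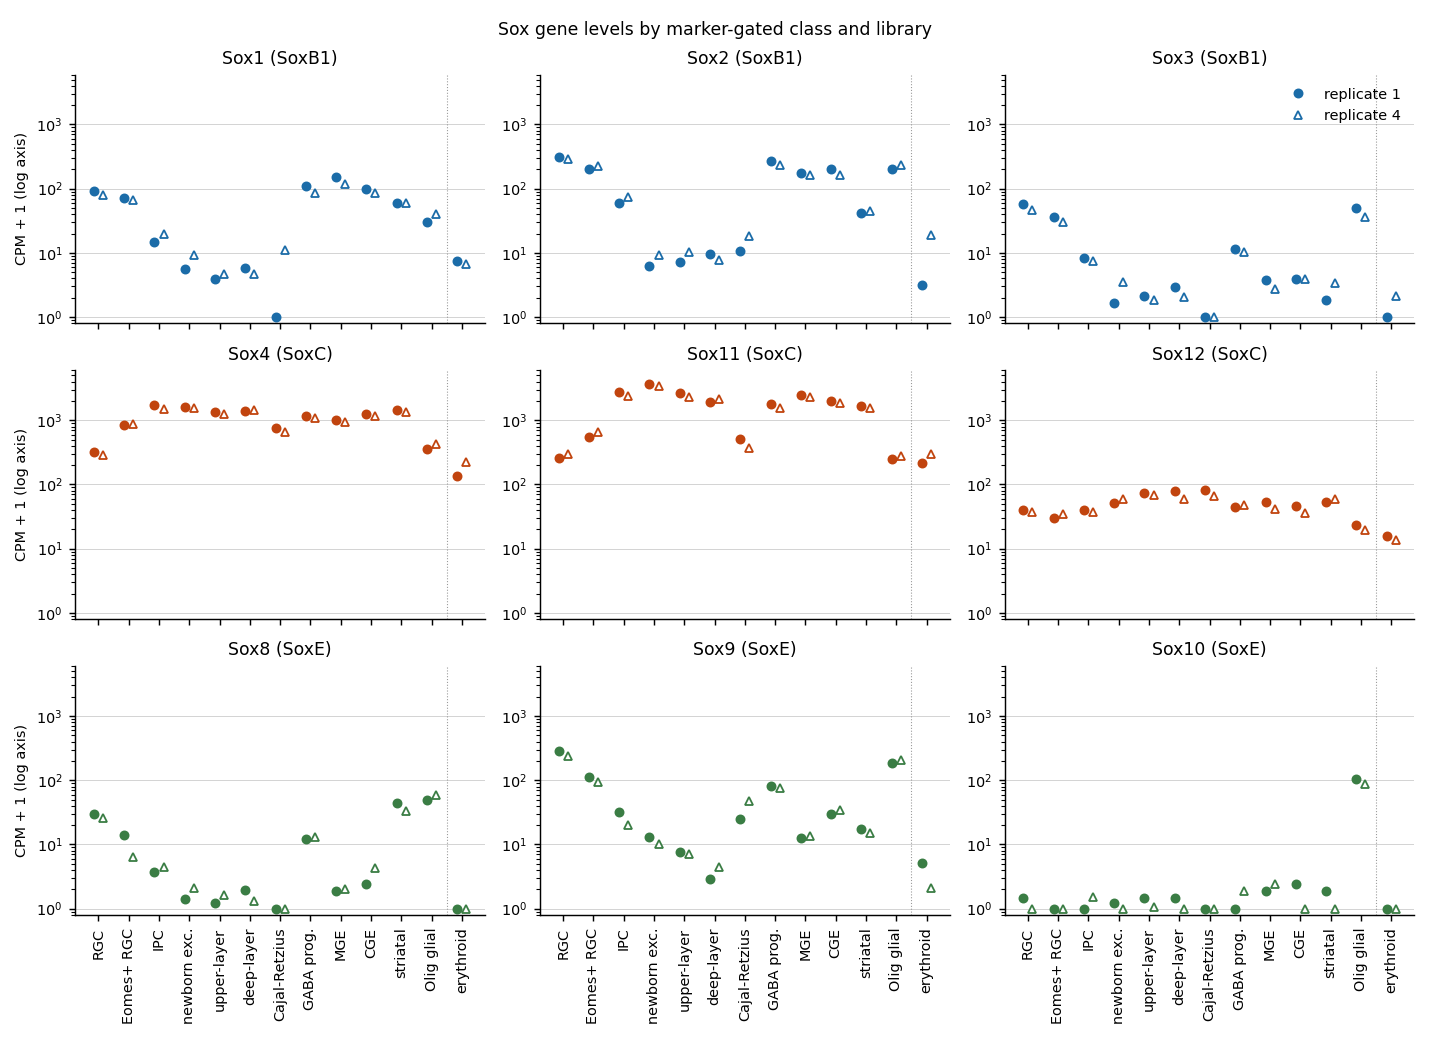
Level of each of the 9 Sox genes (CPM + 1, log axis) in 12 neural classes and, right of the dotted line, in erythroid-like cells as a measure of free RNA. Filled circles are replicate 1 and open triangles replicate 4. SoxB1 genes and *Sox9* are higher in RGC-like cells than in IPC-like cells and excitatory neurons, *Sox4* and *Sox11* are lower in RGC-like cells than in these classes, and *Sox10* stands above the other neural classes in Olig glial progenitor-like cells alone.

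From RGC-like to excitatory neuron-like cells the subgroups changed in opposite directions. All 3 SoxB1 genes, *Sox8* and *Sox9* were higher in RGC-like cells, and all 3 SoxC genes were lower. That is 5 members called higher, against 28.6% of all genes tested, and 3 called lower, against 33.7%. The median absolute log2 fold change of the members was 4.28, beside 0.76 over the 14860 genes tested. *Sox10* was not called (log2 fold change −0.23, adjusted p = 0.92), with 1 UMI in the RGC-like class.

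*Sox2*, the SoxB1 factor most used as a mark of neural stem cells, was at 306 CPM in replicate 1 and 289 CPM in replicate 4 in RGC-like cells. In *Eomes*-positive RGC-like cells it stood at 200 and 222 CPM, at 58.5 and 73.9 in IPC-like cells and at 5.27 and 8.35 in newborn neuron-like cells. Both libraries thus fell at each of these 3 steps, with no overlap between neighbouring classes. In upper-layer cells *Sox2* was at 6.29 and 9.33 CPM and in deep-layer cells at 8.53 and 6.82 CPM, values that overlap those of newborn neurons. Erythroid-like cells, which should lack the gene, held 2.11 and 18.2 CPM, so the levels in excitatory neurons lay within that background. The log2 fold change of RGC-like over excitatory neuron-like cells was 5.05 (SE 0.13, adjusted p = 1.3e-23).

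*Sox1*, a SoxB1 factor shared by dorsal and ventral progenitors, was at 89.8 and 79.1 CPM in RGC-like cells, and IPC-like cells held 13.6 and 18.3 CPM. *Sox3*, the X-linked SoxB1 gene, was at 56.0 and 45.7 CPM and at 7.31 and 6.55 CPM in the same classes. Upper-layer and deep-layer neuron-like cells held between 2.91 and 4.74 CPM of *Sox1* and between 0.868 and 1.90 CPM of *Sox3*, and *Sox1* was no higher there than the 6.34 and 5.69 CPM of erythroid-like cells. Newborn neuron-like cells held 4.61 and 8.14 CPM of *Sox1* and 0.659 and 2.57 CPM of *Sox3*. The folds over excitatory neurons were 4.28 (SE 0.18, adjusted p = 9.8e-19) for *Sox1* and 5.17 (SE 0.27, adjusted p = 1.8e-16) for *Sox3* on the log2 scale. *Sox1* and *Sox2* lie, on the same strand, inside the longer noncoding genes *Sox1ot* and *Sox2ot*, so part of their UMIs could be assigned to either gene of each pair. The class patterns of host and member differed for *Sox2*: *Sox2ot* stood at 365 and 380 CPM in RGC-like cells but at 3427 and 2995 CPM in MGE interneuron-like cells, where *Sox2* was lower than in RGC-like cells. *Sox1ot* was higher in the MGE class (424 and 360 CPM) than in RGC-like cells (159 and 194 CPM), as *Sox1* was.

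*Sox4* and *Sox11*, the SoxC factors best known for pan-neuronal gene activation, ran in the other direction. *Sox4* was at 323 and 287 CPM in the RGC-like class, at 833 and 867 CPM where RGC-like cells also held *Eomes*, and at 1749 and 1523 CPM among IPC-like cells. *Sox11* was at 260 and 292, 545 and 661, and 2796 and 2400 CPM in these classes, and reached its highest level of the 12 neural classes in newborn neurons, at 3650 and 3401 CPM. The libraries did not overlap between successive classes on the way from RGC-like to IPC-like cells for either gene. Erythroid-like cells held 133 and 220 CPM of *Sox4* and 211 and 300 CPM of *Sox11*. Of the other non-neural classes, microglia-like cells held 720 and 325 CPM of *Sox4* and 1063 and 542 CPM of *Sox11*, and endothelial-like cells 411 and 359 CPM and 353 and 469 CPM. The levels of both genes in RGC-like cells were thus no higher than in some non-neural classes. Over the 12 neural classes the levels of *Sox4* and *Sox11* (log2 of CPM + 1) had a Pearson r of 0.93 in replicate 1 and 0.92 in replicate 4. The classes share libraries and depth, so these values are descriptive.

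The start regions of *Sox4* and *Sox11* are shown because their levels moved together over these classes. Each is the 250 bases before the annotated start, read 5′ to 3′ on the strand of the gene from the RefSeq windows of GRCm38.p6, at chr13:28953700-28953949 (minus strand) for *Sox4* and chr12:27342719-27342968 (minus strand) for *Sox11*. Capitals mark CCAAT, or ATTGG on the other strand.
Sox4: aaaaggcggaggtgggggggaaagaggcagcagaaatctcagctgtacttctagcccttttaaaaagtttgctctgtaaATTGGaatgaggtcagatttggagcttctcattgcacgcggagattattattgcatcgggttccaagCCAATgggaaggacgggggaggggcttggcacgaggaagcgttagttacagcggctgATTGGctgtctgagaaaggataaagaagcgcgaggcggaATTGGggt
Sox11: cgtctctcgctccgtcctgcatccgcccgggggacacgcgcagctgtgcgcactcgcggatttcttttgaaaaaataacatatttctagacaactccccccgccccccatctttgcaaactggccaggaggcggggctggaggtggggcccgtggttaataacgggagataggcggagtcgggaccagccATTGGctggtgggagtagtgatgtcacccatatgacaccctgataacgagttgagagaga
*Sox4* held 4 such matches, 171, 104, 47 and 8 bases before its start, and *Sox11* held 1, 60 bases before. Of the windows of all 32851 genes 33.8% held 1 or more. Among the 6 members matched to a window, *Sox1*, *Sox2* and *Sox12* held 1 each and *Sox8* none. The match thus did not separate SoxB1 from SoxC genes, and *Sox8* was the only SoxE gene with a window. *Sox3*, *Sox9* and *Sox10* had no window. The octamer ATGCAAAT, or ATTTGCAT on the other strand, was in the window of *Sox12* alone among the 6 and in 1.60% of all windows. *Sox12*, *Sox1* and *Sox2* had 35, 29 and 27 CpG dinucleotides, *Sox8* had 18, *Sox11* 17 and *Sox4* 11, with a median of 6 over all windows. A match is a description of these letters and not of binding.

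*Sox12*, the third SoxC gene, varied less. Its levels were 38.9 and 35.96 CPM among RGC-like, 39.0 and 35.6 CPM among IPC-like, 51.4 and 57.4 in newborn and 72.8 and 68.4 in upper-layer neuron-like cells. RGC-like and IPC-like cells overlapped, and both lay below newborn neurons in each library. Its log2 fold change of RGC-like over excitatory neuron-like cells was −1.08 (SE 0.13, adjusted p = 1.2e-08), against −2.35 (SE 0.10, adjusted p = 1.2e-18) for *Sox4* and −3.21 (SE 0.13, adjusted p = 1.1e-19) for *Sox11*.

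*Sox9*, the SoxE factor of radial glia and astrocyte precursors, was at 281 and 236 CPM in RGC-like cells. It fell to 113 and 92.1 CPM in *Eomes*-positive RGC-like cells, to 31.3 and 19.1 CPM in IPC-like cells and to 11.9 and 9.21 CPM in newborn neuron-like cells. Its log2 fold change over excitatory neurons, 5.72 (SE 0.15, adjusted p = 6.6e-24), was the largest of the members. *Sox8* also fell, with 28.7 and 24.8 CPM among RGC-like cells but 2.78 and 3.41 CPM among IPC-like cells.

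**Figure D2:**
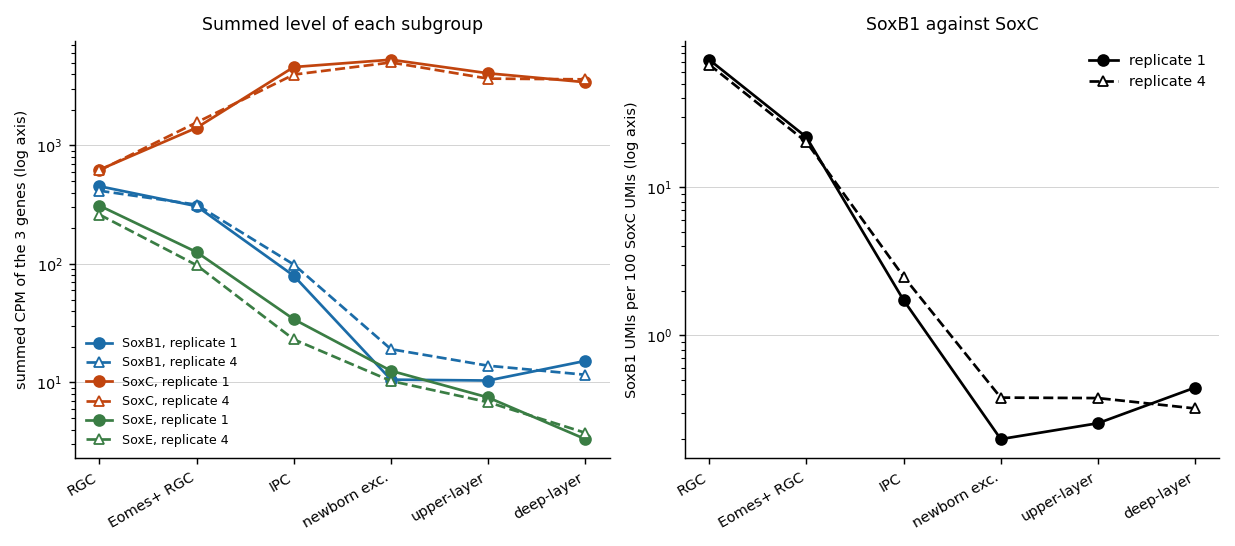
Summed level of the 3 genes of each subgroup (left, CPM, log axis) and SoxB1 UMIs per 100 SoxC UMIs (right, log axis) in classes of the excitatory lineage, ordered from RGC-like to deep-layer neuron-like, with 1 line per library. SoxB1 UMIs per 100 SoxC UMIs are 70.0 ± 3.73 (SD, n = 2) in RGC-like cells and 2.11 ± 0.54 in IPC-like cells. Upper-layer and deep-layer classes are 2 alternative ends and not successive steps.

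Along the excitatory lineage SoxB1 genes, *Sox8* and *Sox9* fell at both of the steps from RGC-like through IPC-like to newborn cells, and the SoxC genes called at each step differed. Between RGC-like and IPC-like cells, 5 members were higher in RGC-like cells (20.5% of all genes were) and 2 were lower (21.9%). *Sox1*, *Sox2*, *Sox3*, *Sox8* and *Sox9* were the 5, with log2 fold changes of 2.25, 2.04, 2.75, 2.96 and 3.27. *Sox4* was lower by −2.54 (SE 0.11, adjusted p = 5.7e-18) and *Sox11* by −3.34 (SE 0.13, adjusted p = 1e-18). Neither *Sox10* (−0.58, adjusted p = 0.83) nor *Sox12* was called (−0.11, adjusted p = 0.61, interval of 2 SE either side −0.42 to 0.20). SoxB1 UMIs per 100 SoxC UMIs went from 72.6 and 67.4 in RGC-like cells through 21.8 and 20.2 in *Eomes*-positive RGC-like cells to 1.73 and 2.50 in IPC-like cells, as the plot of the excitatory lineage shows. The RGC gate admits cells with under 3 UMIs of excitatory neuron genes, and how far that sets the SoxC levels of this class was not tested.

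From IPC-like to newborn neuron-like cells, 5 members were again higher in the earlier class (13.3% of all genes) and 2 were lower (14.7%). *Sox2* had the largest change, at 3.21 (SE 0.20, adjusted p = 1.9e-13), and the other 4 were *Sox1* (1.27), *Sox3* (1.98), *Sox8* (1.91) and *Sox9* (1.15). The *Sox3* value (SE 0.43) differed between libraries, at 3.11 in replicate 1 and 1.22 in replicate 4. *Sox11* was lower in IPC-like cells by −0.51 (SE 0.12, adjusted p = 0.0011) and *Sox12* by −0.62 (SE 0.13, adjusted p = 0.00056). *Sox4* was not called, at −0.01 (SE 0.10, adjusted p = 0.94), and its libraries overlapped between the classes. *Sox10* was not called either (1.15, adjusted p = 0.68). The *Sox8* call was lost with stricter gates (adjusted p = 0.051) and with a mitochondrial limit of 5% (adjusted p = 0.064).

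Newborn neuron-like cells differed from the mean of upper-layer and deep-layer cells in 3 members. *Sox11* was higher in newborn cells (0.64, SE 0.10, adjusted p = 1.4e-05), as was *Sox9* (1.30, SE 0.26, adjusted p = 0.00047), and *Sox12* was lower (−0.35, SE 0.10, adjusted p = 0.017), by −0.53 in replicate 1 and −0.17 in replicate 4. These 2 higher and 1 lower calls compare with 8.06% and 10.8% of all genes. The *Sox9* level of newborn cells, 11.9 and 9.21 CPM, lay within the 0 to 30.4 CPM of the 5 non-neural classes. *Sox12* was not called with a mitochondrial limit of 5% (−0.14, adjusted p = 0.60). *Sox4* was at 1585 and 1553 CPM in newborn cells, 1331 and 1264 in upper-layer and 1406 and 1427 in deep-layer cells, so its libraries did not overlap, but its fold change of 0.20 had an adjusted p of 0.10. DESeq2 gave *Sox4* an adjusted p of 0.0025, stricter gates 0.033 and a fit of the compared classes alone 0.0058. In that last fit *Sox1* was also called (adjusted p = 0.048), so that 5 members were, and *Sox1* was called too with doublet scores removed (1.01, adjusted p = 0.027). Besides *Sox1* (0.76, adjusted p = 0.074), the other members without a call were *Sox2* (−0.20), *Sox3* (0.44), *Sox8* (0.45) and *Sox10* (−0.80), with adjusted p-values from 0.61 to 0.79.

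Between upper-layer and deep-layer cells 1 member was called higher (4.7% of all genes) and none lower (7.71%). *Sox9* was at 6.75 and 6.08 CPM in upper-layer and at 1.90 and 3.41 CPM in deep-layer cells (1.20, SE 0.39, adjusted p = 0.041). Erythroid-like cells held 4.23 and 1.14 CPM of it, and the call was lost with DESeq2 (adjusted p = 0.07), without the library block (0.058), with stricter gates (0.15), in cells with at least 3000 UMIs (0.068) and under 5% mitochondrial UMIs (0.24). *Sox11* was higher in the upper-layer class of both libraries, at 2656 and 2328 against 1930 and 2123 CPM, without a call (0.31, SE 0.12, adjusted p = 0.094). It was called with no count filter, stricter gates, a mitochondrial limit of 5% or the compared classes alone, with adjusted p-values of 0.003, 0.006, 0.027 and 0.0025. *Sox4* (−0.11, adjusted p = 0.56) was called lower by DESeq2 only (−0.16, adjusted p = 0.05). The log2 fold changes of *Sox1*, *Sox2*, *Sox3*, *Sox8*, *Sox10* and *Sox12* lay between −0.46 and 0.18, with adjusted p-values from 0.74 to 0.98.

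**Figure D3:**
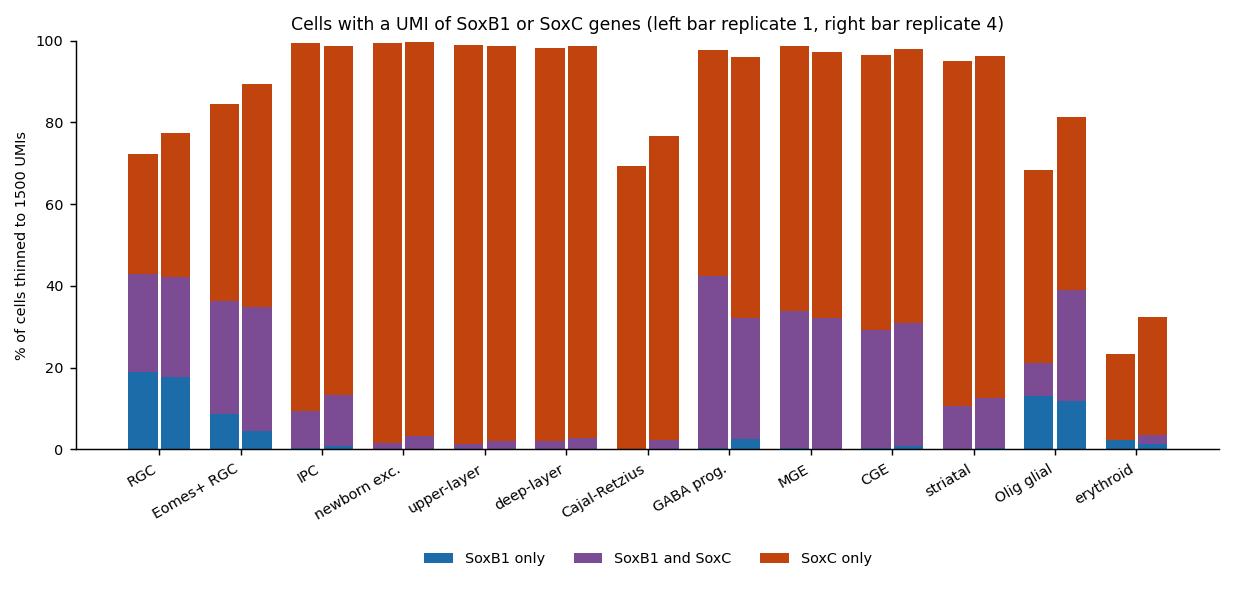
Share of cells with a UMI of a SoxB1 gene only, of both a SoxB1 and a SoxC gene, or of a SoxC gene only, after each cell was thinned to 1500 UMIs (left bar replicate 1, right bar replicate 4). SoxB1 UMIs appear in 42.6% ± 0.52 of RGC-like cells and in 1.59% ± 0.50 of upper-layer cells. Most SoxB1-positive GABAergic cells also hold a SoxC UMI, as do 95.5% to 97.7% of all cells of the GABAergic classes.

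Within single cells, thinned to 1500 UMIs so that depth is equal, SoxB1 and SoxC UMIs were counted together. In RGC-like cells 42.6% ± 0.52 (SD, n = 2) held a SoxB1 UMI, 56.6% ± 4.53 a SoxC UMI and 24.4% ± 0.40 held both a SoxB1 and a SoxC UMI. Without thinning the shares with a SoxB1 UMI and with both were 85.7% ± 5.53 and 81.8% ± 6.93. In IPC-like cells 10.8% ± 2.38 held both (37.9% ± 0.75 without thinning), and in GABAergic progenitor-like cells 35.9% ± 8.92 did (78.0% ± 3.79). No newborn, upper-layer or deep-layer neuron-like cell held a SoxB1 UMI without a SoxC UMI after thinning. A SoxC UMI was in 99.5%, 98.9% and 98.4% of all cells of these classes, so almost no such cell could occur. Thinned erythroid-like cells held a SoxB1 UMI in 2.89% ± 0.99 and a SoxC UMI in 26.1% ± 6.91, and the other 4 non-neural classes held a SoxC UMI in 43.0% to 52.3%. Whether both kinds met in a cell more often than their separate shares give was not tested. Against the erythroid-like share, the SoxB1 shares of newborn neurons (2.37% ± 1.28) and upper-layer neurons were at or below background. Median depths before thinning were 8326 and 5552 UMIs in RGC-like and 2744 and 3115 in erythroid-like cells. *Sox2* and *Sox9* were found together in 8.21% ± 0.31 of thinned RGC-like cells (56.8% ± 7.69 without thinning), in 3.15% ± 0.03 of GABAergic progenitor-like cells and in 0.53% ± 0.49 of IPC-like cells.

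GABAergic progenitor-like cells, of the ventral lineage that gives inhibitory neurons, held more *Sox4* and *Sox11* and less *Sox3*, *Sox8* and *Sox9* than RGC-like cells. Of the 9 members 2 were higher (21.3% of all genes) and 3 lower (19.1%). *Sox4* was at 1157 and 1081 CPM (log2 fold change 1.88, SE 0.11, adjusted p = 9.2e-15) and *Sox11* at 1778 and 1555 CPM (2.59, SE 0.13, adjusted p = 5e-16). *Sox9* was at 79.3 and 73.9 CPM (−1.74, SE 0.12, adjusted p = 1.1e-12). *Sox3* was at 10.4 and 9.41 CPM (−2.34, SE 0.25, adjusted p = 9.9e-09). *Sox2*, at 269 and 229 CPM, and *Sox1*, at 109 and 84.9 CPM, were not called, with intervals of −0.49 to −0.03 and −0.09 to 0.48. A fit of the compared classes alone called *Sox2* lower (−0.29, adjusted p = 0.0075), and stricter gates called *Sox12* higher (0.39, adjusted p = 0.05), which otherwise had no call (0.28, adjusted p = 0.14). *Sox10* had none (1.28, adjusted p = 0.57). *Sox8* was lower (−1.16, SE 0.28, adjusted p = 0.0011), and its call was lost with a mitochondrial limit of 5% (adjusted p = 0.10).

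This class was gated by either RGC markers or cycle genes, and the routes held unequal *Sox9* levels. Cells with 3 or more RGC markers held 122 and 104 CPM of *Sox9* and those gated by cycle genes only 57.0 and 56.3 CPM. *Sox2* was at 281 and 241 CPM by the first route and at 263 and 222 CPM by the second, and *Sox1* at 104 and 74.4 against 112 and 91.0. The routes were compared after the class levels had been seen and were not tested. Cells with 3 or more cycle genes made up 93.6% and 91.4% of the class, against 56.2% and 46.6% of RGC-like cells. The highest doublet scores fell on 17.3% and 23.5% of its cells, against 2.41% and 2.74% of RGC-like cells. With those cells removed 5 members were again called, with *Sox11* at 2.70 and *Sox9* at −1.86, and the part of the cycle genes was not tested.

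MGE interneuron-like cells, postmitotic GABAergic neurons that migrate into the cortex, held more *Sox1* and *Sox2* than excitatory neurons. *Sox1* was at 154 and 118 CPM, its highest level of the neural classes, and *Sox2* at 174 and 162 CPM. The log2 fold changes over excitatory neuron-like cells were 5.10 (SE 0.17, adjusted p = 3.2e-21) and 4.37 (SE 0.14, adjusted p = 3.7e-21). *Sox3* stayed at 2.75 and 1.76 CPM and was not called (0.84, adjusted p = 0.28). With *Sox9* at 11.5 and 12.3 CPM (1.45, SE 0.30, adjusted p = 0.00031), 3 members were higher, against 14.2% of all genes. The *Sox9* call was lost with stricter gates (0.99, adjusted p = 0.11). The 5 non-neural classes held between 0 and 30.4 CPM of *Sox9*, so the MGE level lay within their range. *Sox4* (−0.52, SE 0.09, adjusted p = 3.1e-05) and *Sox12* (−0.65, SE 0.12, adjusted p = 0.00011) were the 2 lower, against 15.4%. *Sox11* was at 2448 and 2304 CPM and was not called (0.04, interval −0.17 to 0.24), nor were *Sox8* (0.80, adjusted p = 0.50) and *Sox10* (2.24, adjusted p = 0.13).

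CGE interneuron-like cells held *Sox1* at 96.3 and 83.7 CPM and *Sox2* at 198 and 162 CPM, so SoxB1 UMIs per 100 SoxC UMIs were 8.58 ± 0.59 (SD, n = 2), beside 8.996 ± 0.635 in MGE interneuron-like and 3.42 ± 0.31 in striatal projection neuron-like cells. *Sox9* was at 28.5 and 33.5 CPM in the CGE class, above both libraries of the MGE class. Within the MGE class *Sox9* was at 27.3 and 26.4 CPM in cells with an *Nkx2-1* UMI, 96 and 80 cells, and at 6.13 and 10.2 CPM in the others. Both of these splits were read after the class levels had been seen and were not tested.

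Striatal projection neuron-like cells stood out by *Sox8*, at 43.7 and 32.3 CPM, above the 28.7 and 24.8 CPM of RGC-like cells. Other GABAergic neuron classes held between 0.917 and 3.35 CPM of it. All 103 *Sox8* UMIs of the class lay in cells with a UMI of *Ebf1*, a transcription factor of direct-pathway striatal neurons, at 57.6 and 43.6 CPM in 168 and 246 cells. The 58 and 94 cells without an *Ebf1* UMI held none, which at 3 counts allows up to 10.9 and 7.04 CPM (upper exact 95% Poisson limits 13.4 and 8.66 CPM), and over both libraries the level was at least 11.6-fold higher with *Ebf1*, counting error only. *Sox1* and *Sox2* were divided the other way, with *Sox1* at 29.9 and 31.3 CPM with *Ebf1* and at 153 and 141 CPM without, and *Sox2* at 26.5 and 25.5 against 87.2 and 98.6 CPM. *Sox3* had 1 and 4 UMIs with *Ebf1* and 0 without. *Ebf1* is one of the gate genes, and the split was made after the class levels had been seen, so it is a description.

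**Figure D4:**
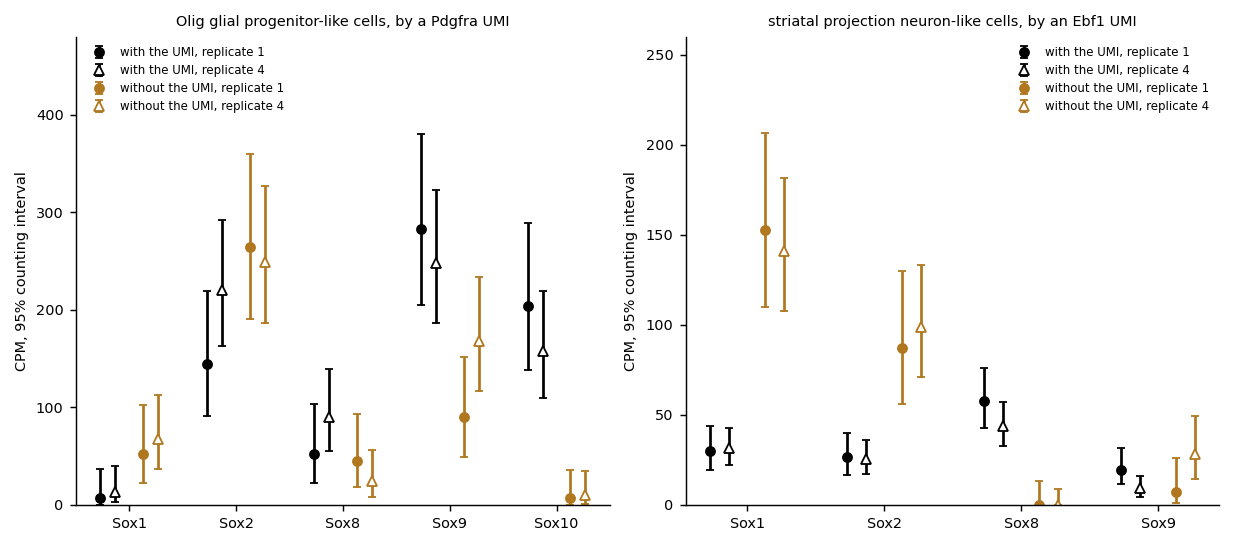
Level (CPM, with exact 95% Poisson intervals) of SoxB1 and SoxE genes in Olig glial progenitor-like cells with and without a *Pdgfra* UMI (left) and in striatal projection neuron-like cells with and without an *Ebf1* UMI (right). Circles are replicate 1 and triangles replicate 4. *Sox10* is carried by the *Pdgfra* cells and *Sox8* of the striatal class by the *Ebf1* cells, while *Sox1* is higher in the cells without either UMI.

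Olig glial progenitor-like cells differed from RGC-like cells in *Sox10*, the SoxE factor required for oligodendrocyte maturation. It was at 104 and 85.9 CPM, from 32 and 37 UMIs, and at 0.463 and 0 CPM in RGC-like cells, from 1 UMI in all. The ratio of the summed libraries was 462, with a counting interval of 80.3 to 18521, and the test gave an adjusted p of 3.3e-08. Across the other 11 neural classes *Sox10* stayed at or below 1.46 CPM in each library. *Sox1* was the other call, at 29.3 and 39.5 CPM (−1.27, SE 0.30, adjusted p = 0.0043). That 1 member higher compares with 5.08% of all genes and 1 lower with 4.12%. The count of 2 members called became 4 with DESeq2 (*Sox4* and *Sox8* added), 4 with no count filter (*Sox2* and *Sox9*) and 5 with stricter gates (*Sox2*, *Sox8* and *Sox11*). It was 3 in cells with at least 3000 UMIs, where *Sox2* was called lower (−0.53, adjusted p = 0.035).

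*Sox8* had its highest level of the neural classes here, at 48.9 and 58.1 CPM, above RGC-like cells in both libraries but without a call (0.997, SE 0.33, adjusted p = 0.058). *Sox9*, at 186 and 209 CPM, and *Sox2*, at 205 and 235 CPM, lay below RGC-like cells in both libraries and were not called, at −0.39 (adjusted p = 0.16) and −0.45 (adjusted p = 0.084). *Sox3* was at 48.9 and 34.8 CPM (−0.32, adjusted p = 0.66). *Sox12* was at 22.8 and 18.6 CPM, below RGC-like cells in both libraries, from 7 and 8 UMIs and without a call (−0.89, adjusted p = 0.11). *Sox4* at 362 and 423 CPM (0.36, adjusted p = 0.11) and *Sox11* at 248 and 281 CPM (−0.08, adjusted p = 0.87) were not called. The class is small, 38 and 59 cells, and 7 of the 9 members had an unadjusted p under 0.05 in this comparison. Among its cells of replicate 4, 28.8% had a doublet score among the highest, against 2.63% in replicate 1, and with those removed *Sox10* was still called (adjusted p = 5.8e-08).

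*Sox10* divided this class by *Pdgfra*, the receptor that marks oligodendrocyte precursors. It was at 204 and 158 CPM in the 20 and 31 cells with a *Pdgfra* UMI and at 6.46 and 9.58 CPM, from 1 and 2 UMIs, in the 18 and 28 cells without. *Sox9* was at 283 and 248 CPM with *Pdgfra* and at 90.5 and 168 CPM without. *Sox1* went the other way, with 6.57 and 13.5 CPM against 51.7 and 67.1. *Pdgfra* is a gate gene and the split was chosen after the class levels were seen, so no test was made.

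**Figure D5:**
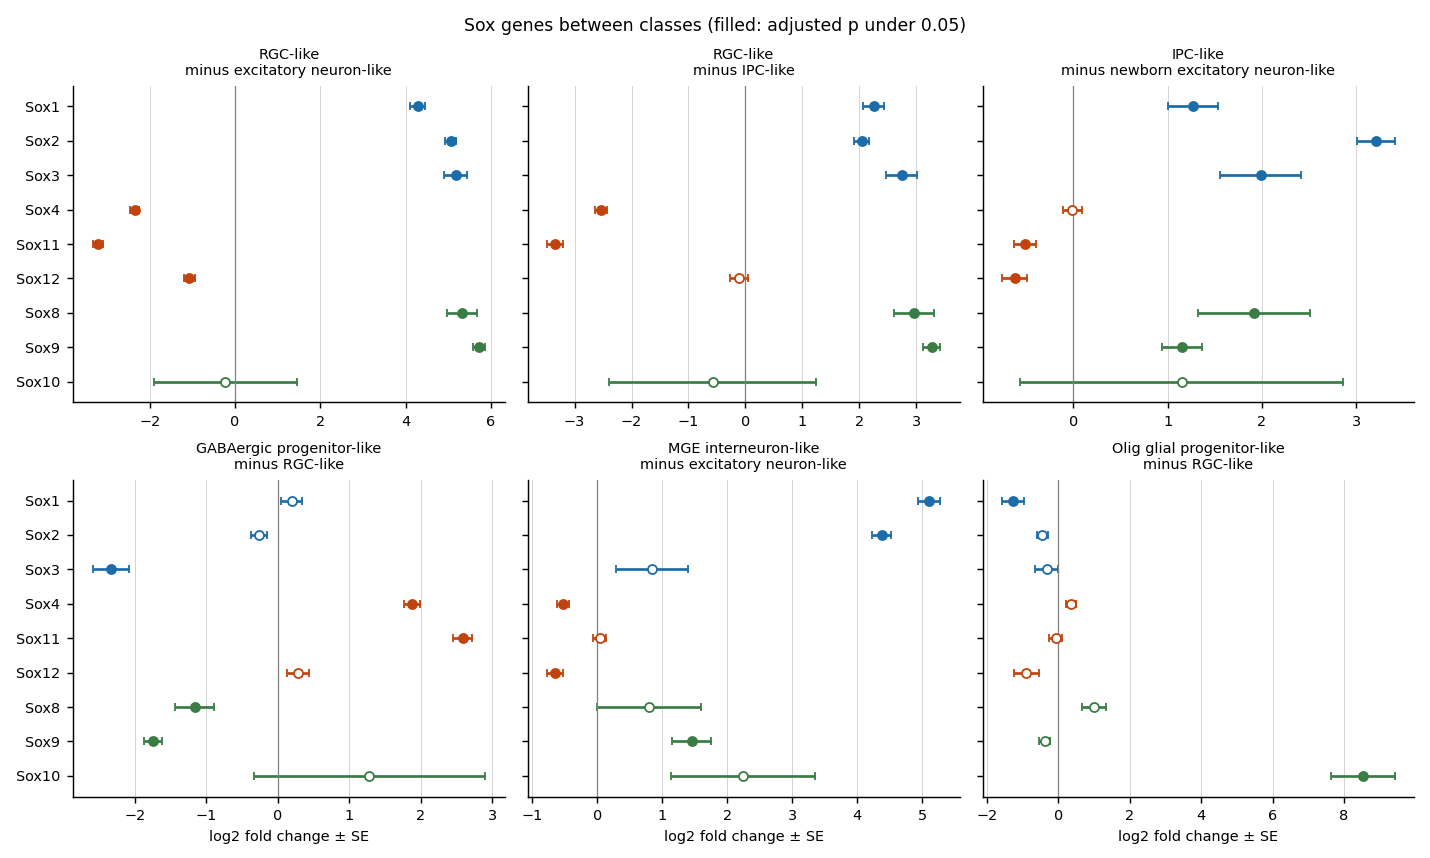
Log2 fold change of each member with its SE in 6 comparisons between classes (filled points have an adjusted p under 0.05, open points do not). The first 2 panels place SoxB1 genes, *Sox8* and *Sox9* at positive and *Sox4* and *Sox11* at negative values, and *Sox10* is called in the comparison of Olig glial progenitor-like with RGC-like cells only, where its fitted value of 8.53 rests on 1 UMI in the RGC-like class.

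Cycling and non-cycling cells were also compared within the RGC-like and the IPC-like class. Cells with 3 or more of 12 cycle genes were set against cells with at most 1, over 11432 genes, with *Sox10* below the count filter. In RGC-like cells no member was higher (8.86% of all genes) and 1 was lower (7.71%), namely *Sox4* (−0.49, SE 0.12, adjusted p = 0.0094). The other 7 members tested lay between −0.20 and 0.47, with adjusted p-values from 0.29 to 0.99. It was at 264 CPM in cycling against 476 CPM in non-cycling cells of replicate 1, but at 272 against 302 CPM in replicate 4. The size of this difference rests on replicate 1, since the log2 ratios of normalised counts were −0.86 there and −0.15 in replicate 4. In IPC-like cells *Sox1* was higher (1.54, SE 0.31, adjusted p = 0.0011), the only member against 11.2% of all genes, and *Sox4* lower (−0.30, SE 0.09, adjusted p = 0.026), the only member against 6.79%. *Sox1* was at 21.9 and 37.4 CPM in cycling IPC-like cells, against 11.5 and 11.1 CPM in the non-cycling ones, from 13 to 42 UMIs, and its log2 ratio was 0.95 in replicate 1 and 1.77 in replicate 4. The *Sox4* call was lost with DESeq2 (adjusted p = 0.14), without the library block (0.14) and under 5% mitochondrial UMIs (0.15). *Sox11* gained a call there with doublet scores removed (−0.34, adjusted p = 0.0049) and with no count filter (−0.26, adjusted p = 0.0074), against an uncalled −0.13 otherwise. *Sox2*, *Sox3*, *Sox8*, *Sox9* and *Sox12* lay between −0.35 and 0.73, with adjusted p-values from 0.083 to 0.80. The cycle effect itself was not called different between RGC-like and IPC-like cells for any member with edgeR, where 0.429% and 0.997% of all genes were called higher and lower. For *Sox1* the difference was −1.37 (SE 0.37, adjusted p = 0.077), the others lay between −0.93 and 0.36, and 2 members had an unadjusted p under 0.05. *Sox1* passed the threshold with the highest doublet scores removed (−1.52, adjusted p = 0.044), in cells with at least 3000 UMIs (−1.51, adjusted p = 0.042) and under 5% mitochondrial UMIs (−1.86, adjusted p = 0.028).

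Genes known from other work as partners, targets or relatives of these factors were read from 5 lists. In RGC-like against excitatory neuron-like cells (28.6% of all genes higher and 33.7% lower), 8 of 11 SoxB1 partners and targets were higher and 1 lower, with a list median of 3.18 beside −0.11 over all genes. *Egfr* (6.23) and the hedgehog effector *Gli3* (6.16) led. Of 10 SoxC targets 7 were lower and 2 higher (median −1.83), led by *Dcx* (−4.45) and *Stmn2* (−3.79), which bind or regulate microtubules. Of the 9 tested SoxE partners and targets, of 12 listed, 5 were higher and 2 lower, led by *Col2a1* (6.10) and *Zcchc24* (5.49). Of 6 genes of progenitor proliferation and repression 5 were higher and 1 lower, led by *Sall1* (5.35) and *Id1* (5.32). Of 10 other Sox genes 4 were tested, 3 were higher and 1 lower. *Sox21*, a SoxB2 gene, was at 99.5 and 102 CPM in RGC-like and below 1 CPM in upper-layer cells (6.63), and *Sox6*, of the SoxD group, had a log2 fold change of 5.23.

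At the RGC-like to IPC-like step (20.5% of all genes higher and 21.9% lower), 8 of 11 SoxB1 partners and targets were higher in RGC-like cells and 2 lower, with *Fabp7* (4.36), the brain lipid-binding protein of radial glia, and *Gli3* (2.01) in front. Of the SoxC targets 6 of 10 were lower and none higher, with *Dcx* (−4.34) and *Tubb3* (−2.41) in front. Of the SoxE list 4 were higher and 2 lower, of the progenitor list 5 and 1, and of the 4 other Sox genes 3 and 1. In GABAergic progenitor-like against RGC-like cells (21.3% and 19.1% of all genes) 6 of 10 SoxC targets were higher and 1 lower, among them *Dcx* (3.78) and *Tubb3* (2.56), and 6 of 11 SoxB1 partners and targets were lower and 1 higher, among them *Fabp7* (−3.25) and *Gli3* (−1.77), while *Sox1* was not called between these classes and *Sox2* was called lower only in a fit of the compared classes alone. The SoxE list had 1 higher and 5 lower, the progenitor list 1 and 4, and the other Sox genes 0 and 2. In MGE interneuron-like against excitatory neuron-like cells 4 SoxB1 partners and targets were higher and 3 lower, and 3 SoxC targets were higher and 4 lower, beside 14.2% and 15.4% of all genes. The list medians were 0.27 and 0.18, beside −0.03 over all genes. The SoxE list had 1 higher and 4 lower of 9 (median −0.89), the progenitor list 2 higher and 1 lower of 6 (median 1.20), and the other Sox genes 2 higher and 1 lower of 4 (median 1.95). *Sox6*, a determinant of MGE interneurons, was at 1559 and 1333 CPM there (6.20). Between upper-layer and deep-layer cells *Sox5*, the SoxD gene of deep-layer identity, had a log2 fold change of −2.26.

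In Olig glial progenitor-like against RGC-like cells (5.08% of all genes higher and 4.12% lower, median −0.05) 1 of the 9 tested SoxE partners and targets was higher, the calcium-binding glial gene *S100b* (1.66), and 3 were lower, of which *Col2a1* (−2.29) had the largest change, with a list median of −0.38. Of the SoxB1 list 2 were higher and 5 lower, led by *Gli3* (−2.54) and *Egfr* (2.37), with a list median of −0.28. Of the SoxC list 2 were higher and 2 lower, of the progenitor list 1 and 1, and of the other Sox genes 0 and 1.

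The genes most like each member across the 12 neural classes, among 11594 compared, were ranked by Pearson r in replicate 1. *Sox10* was followed by *Nkx2-2* (r 0.98 in replicate 1 and 0.89 in replicate 4), *Bcas1* (0.97 and 0.97) and *Gal3st1* (0.97 and 0.88). *Sox3* was followed by *Pon2* (0.99 and 0.93), *Ndrg2* (0.99 and 0.95) and *Cbs* (0.98 and 0.98), and *Sox9* by *Mpp5* (0.97 and 0.58), *Fgd6* (0.96 and 0.83) and *Csrp1* (0.96 and 0.92). *Sox1* had its host *Sox1ot* (0.97 and 0.94) and *Kat2b* (0.94 and 0.78). *Sox2* had *Zfp516* (0.93 and 0.88), *Gm13889* (0.93 and 0.89) and *Svil* (0.93 and 0.85). *Sox4* had *Igfbpl1* (0.97 and 0.96), *Ahsa2* (0.95 and 0.88) and *Aldh1b1* (0.95 and 0.93), and *Sox11* had *St8sia4* (0.96 and 0.94), *Ip6k2* (0.94 and 0.91) and *Ypel1* (0.94 and 0.86). *Sox12* had *Gm42303* (0.98 and 0.59), *Efna3* (0.96 and 0.77) and *Slc6a17* (0.95 and 0.86), and *Sox8* had *Lonrf3* (0.94 and 0.75), *Cdh20* (0.92 and 0.91) and *Ufl1* (0.90 and 0.51). Each r is a description over classes that share libraries and depth.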

How the data were processed

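Dissociated cells of mouse cerebral cortex were profiled in 2 libraries with 10x 3′ chemistry. The authors deposited UMI counts per gene and barcode, made with Cell Ranger (version 7.0.0 in the processing notes, 7.1.0 in the file header) on mm10. All 115 gate markers, the 9 members and the related lists were chosen with earlier results of these data known. Counts were summed by class and library (Python 3.11.15, numpy 2.4.6, scanpy 1.11.5) and fitted in edgeR 4.0.16 with TMM scaling, a library term and a filter of at least 10 counts in at least 2 sums, separately for the classes (24 sums) and for cycling state (8 sums). The standard error is the log2 fold change divided by the square root of F. The class fit was tested on simulated counts for the comparison of RGC-like with IPC-like cells only. No doublets were removed in the main values; an alternative dropped the 432 and 1111 cells with the highest doublet scores (0.8% per 1000 barcodes). Since the library is the replicate block, library numbers pair the sums of 1 library.

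The members were described in each comparison, those without a call in part by their range. From each related list, the 2 called genes with the largest change, the same direction in both libraries and at least 10 CPM in the higher class were named, and other listed genes only as background. Genes most like a member were the 3 with the highest Pearson r of log2(CPM + 1). A gene that is not reported here was left out of them. Poisson intervals and floors of 3 counts cover counting error only. Other alternatives were DESeq2 1.42.0 (test and size factors), no filter, no block, stricter gates, at least 3000 UMIs, a mitochondrial limit of 5%, the compared classes alone and each library alone. CpG and motif counts used RefSeq windows, and exon numbers a GRCm39 annotation.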

Additional observations from a re-analysis of the deposited data

Results flagged for a closer look

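Sox transcripts were also counted in the barcodes that the filters removed, 3083 in replicate 1 and 3309 in replicate 4, which no comparison used. SoxB1 genes were at 81.8 CPM in replicate 1 (583 UMIs) and 95.5 CPM in replicate 4 (478 UMIs), beside 132 and 123 CPM in the cells kept. SoxC genes were at 2353 and 2107 CPM (16762 and 10546 UMIs), beside 3426 and 3111 CPM. SoxE genes were at 31.6 and 43.8 CPM (225 and 219 UMIs), beside 46.7 and 42.1 CPM. The summed SoxB1 and SoxC levels were lower in the removed barcodes of both libraries, while *Sox12* was higher in those barcodes, at 76.9 and 65.9 CPM against 53.4 and 50.9 CPM. These differences were not tested.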

How the results depend on the processing

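Of 813 values of members under the alternatives, 774 kept their side of the threshold, 13 lost and 26 gained a call. No value with a call in either fit changed direction, while some values without a call did. None of the 82 single-library ratios of the 41 called values had the opposite sign. Of the class levels, 38 moved by over 1 SD between libraries with stricter gates and 70 did not, and 11 moved and 97 did not with doublet scores removed. The number of members called rose from 3 to 5 between newborn and excitatory neuron-like cells in a fit of the compared classes alone. Between Olig glial progenitor-like and RGC-like cells it went from 2 to 4 with DESeq2, 4 with no filter on low counts and 5 with stricter gates. Between upper-layer and deep-layer cells it went from 1 to 2 with no filter and in the compared classes alone, and to 0 without the replicate block and in cells with at least 3000 UMIs. In IPC-like cells the cycling comparison fell from 2 calls to 1 with DESeq2, without the replicate block and under 5% mitochondrial UMIs, and was 3 with doublet scores removed and with no filter, where *Sox11* was added. The difference of the cycle effect between RGC-like and IPC-like cells went from 0 to 1 call with no filter (*Sox11*, 0.56, adjusted p = 0.0032), with doublet scores removed, with at least 3000 UMIs and under 5% mitochondrial UMIs (*Sox1* in each). The cause of these changes was not tested. Without the replicate block *Sox9* between upper-layer and deep-layer cells had an adjusted p of 0.058 and *Sox4* between cycling and non-cycling IPC-like cells one of 0.14, and no other call on a member changed. DESeq2 size factors shifted the median gene by up to 0.10 (log2). With no count filter it shifted by −0.18 between Olig glial progenitor-like and RGC-like cells and by 0.11 between upper-layer and deep-layer cells. That setting also shifted it by −0.12 in the cycling comparison of IPC-like cells and by 0.24 in the difference of the cycle effect. Stricter gates shifted it by −0.14 in the Olig comparison. The part of these shifts in the calls gained was not tested. Under 5% mitochondrial UMIs too few Olig glial progenitor-like cells (15 in replicate 1) were left for a comparison. With 2 libraries, the spread of each class rests on 1 difference, and low levels such as those of *Sox10* rest on single UMIs.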
